A study of Mus musculus with 12 samples.

Results

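Ribosome biogenesis begins in the nucleolus, where RNA polymerase I transcribes the ribosomal DNA into a long precursor RNA. Small nucleolar ribonucleoproteins (snoRNPs) then guide the methylation and pseudouridylation of this precursor, the small subunit processome cleaves it on the way to the 40S subunit, and a separate set of assembly factors builds the 60S subunit. B cells stimulated with a mitogen enlarge their nucleoli and make many ribosomes before they divide, and DNA double-strand breaks are known to pause polymerase I through the kinase ATM. The genes described here are 42 protein-coding genes of this pathway, chosen by name from the 29486 genes of the deposited mRNAseq table: 8 for RNA polymerase I and its initiation factors, 6 for nucleolar scaffold proteins and proteins associated with ribosomal DNA transcription, 3 for the box C/D snoRNP, 4 for the box H/ACA snoRNP, 9 for the small subunit processome and 40S maturation, and 12 for 60S assembly. All 42 were found, and all 42 passed the filter on low values (a level of at least 10 in 1 or more conditions), as did 15579 genes in all.

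Total mRNA abundance was measured in 12 libraries, 4 for each of 3 conditions, of splenic B cells from C57BL/6Babr mice aged 8 to 12 weeks. All cells were activated with LPS (10 µg/ml). The first group received LPS only, for 48 h. In the second, etoposide, a topoisomerase II poison that causes DNA double-strand breaks, was added after LPS at 20 µM for 4 h. In the third, KU55933, an inhibitor of ATM, was added at 10 µM after 47 h of LPS and 1 h before the same dose of etoposide. The labels do not state whether cells with LPS alone were kept for the further 4 h, and there was no group with KU55933 alone. Each condition carried 2 Illumina indexes that no other condition had, so that index and condition cannot be told apart.

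The deposited columns held no spread between replicates. Within a condition, the columns were proportional to each other for every gene, as a fitted condition mean multiplied by a library factor would be, and each gene therefore had 1 fitted level per condition. No test between conditions could be run, and whether a difference exceeded the variation between replicates cannot be said from these values. Differences are given as log2 differences of the fitted levels, the levels being normalized counts after the library factors were divided out, and 1.5-fold was taken as the mark for counting genes. The error from read sampling alone, if the deposited values are on the scale of reads, was small for these genes: the SD of the log2 difference of a member lay between 0.0045 and 0.0345 over the 3 comparisons. In units of 1000000 counts, the column totals ran from 20.7 to 23.9 with LPS, from 22.5 to 30.6 after etoposide and from 20.4 to 25.1 where KU55933 preceded it. The 6 B-cell markers summed to a level of 117228 with LPS alone, 68508 with etoposide and 78710 with KU55933 and etoposide, and all 6 were lower with etoposide than with LPS. The 5 T-cell markers were each under a level of 10 in every condition, the 5 macrophage markers summed to 325, 250 and 255 in the same order, and the 5 red blood cell markers to 226, 180 and 115. The p53 target genes Cdkn1a and Mdm2, which mark the response to etoposide, had levels of 427 and 2724 with LPS and of 13120 and 16257 with etoposide. With KU55933 and etoposide their levels were 10739 and 9468, still above those with LPS.

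The members were mostly lower in etoposide-treated cells, lower again where KU55933 had been added, and lowest as a group in the cells that received both, with a small set that went the other way with etoposide. The median log2 difference of the 42 genes was -0.40 for etoposide against LPS, -0.25 for KU55933 and etoposide against etoposide, and -0.60 for KU55933 and etoposide against LPS. Over all genes past the filter the corresponding medians were -0.11, -0.01 and -0.04. As well-expressed genes in general also had lower values with etoposide under this scaling, the members were also set beside the 5699 genes whose mean level lay within the range of the members, whose medians were -0.23, -0.02 and -0.20. The members lay below that median in 29, 36 and 36 of 42 cases. The 3 comparisons share libraries and are not independent of each other. In bulk samples, fewer cells of a type and less RNA per cell cannot be told apart, and the part that the lower B-cell markers have in these differences was not tested.

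The largest count of members past 1.5-fold was in KU55933 and etoposide against LPS, where 21 of 42 (50%) were lower and 1 was higher, against 18% of all genes lower and 18.7% higher. Among genes of the same level range, 22.7% were lower and 7.97% higher. In etoposide against LPS, 8 members were lower and 3 higher past 1.5-fold, shares of 19.0% and 7.14%, where all genes gave 20.1% and 19.7% and genes of the same level range 23.4% and 9%. The lower share was thus close to that of all genes, and the shift of the members with etoposide alone was in their median and not in the number past the fold. In KU55933 and etoposide against etoposide, 3 members were lower and 0 higher past 1.5-fold, against 10.9% of all genes lower and 7.86% higher. Of the genes in the same level range, 5.07% were lower and 4.97% higher past that mark. A log2 difference below 0 was found in 37 of the 42, in 51.1% of all genes and in 52.9% of genes of the same level range.

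The counts depended on how the libraries were scaled. The distance of the members from other genes is nearly fixed by construction under linear scalings, which move all genes by about the same amount. Of the scalings used, only quantile normalization could change it. With factors set on genes of at least 100 in every column, 13 members were lower past 1.5-fold in KU55933 and etoposide against LPS, where all genes gave 12.6%, and scaling by column totals gave 9 members and 10.5%. Under every linear scaling the median of the members lay 0.55 to 0.56 below that of all genes and 0.39 below that of the genes of the same level range in this comparison. For KU55933 and etoposide against etoposide the distance from the latter was 0.23, and for etoposide against LPS it was 0.18. Quantile normalization gave 0.39, 0.24 and 0.11 in the same order, the last of them 1.62 times smaller. Against all genes, it left a distance of 0.36 for KU55933 and etoposide against LPS (0.56 under the main scaling) and of 0.05 for etoposide against LPS (0.30 under the main scaling), so that the lower median with etoposide alone depended on the scaling. Relative to the median gene, 21 members were lower and 1 higher past 1.5-fold in KU55933 and etoposide against LPS, where all genes gave 16.5% and 19.8%. In KU55933 and etoposide against etoposide the counts relative to the median gene were 3 and 0, beside 10.6% and 8.12%, and in etoposide against LPS they were 7 and 3, beside 15.6% and 22.2%.

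**Figure D1:**
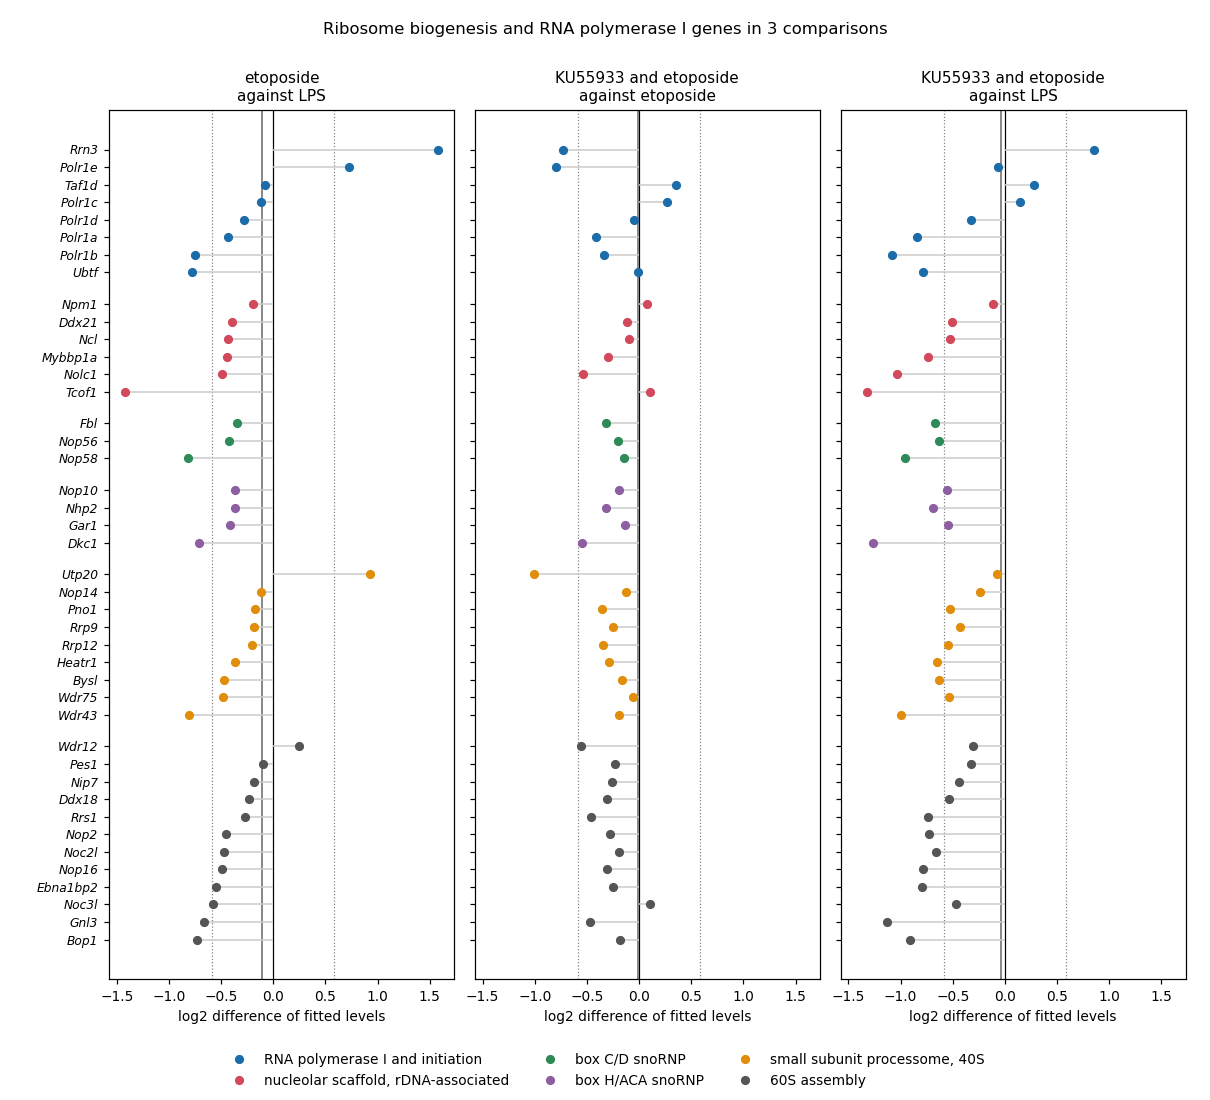
Log2 difference of the fitted levels (x axis) for each of the 42 members (y axis, grouped and coloured by role) in etoposide against LPS, KU55933 and etoposide against etoposide, and KU55933 and etoposide against LPS. The grey solid line is the median of all genes and the dotted lines mark 1.5-fold. Rrn3, Utp20, Polr1e and Wdr12 are the 4 members to the right of 0 with etoposide, and in the right panel 21 members lie beyond the lower dotted line.

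Promoter sequences are shown first for the members that carry the canonical E-box CACGTG, the letters bound by MYC and MAX, since MYC is the best known regulator of ribosome biogenesis genes in activated B cells and the members with it include genes that differed in opposite directions with etoposide. RefSeq windows on GRCm38.p6, from 250 bases before to 50 bases after each annotated start, matched 36 of the 42 members. Rrs1, Npm1, Bop1, Fbl, Rrp12 and Tcof1 were not matched. Of the 36, 7 (19.4%) held CACGTG, whose reverse complement is the same letters, compared with 8.09% of all genes with a window and 11.5% of those that passed the filter. These were Rrn3, Mybbp1a, Utp20, Wdr43, Pno1, Nop2 and Pes1. In Rrn3 and Nop2 the letters stood before the start, and the 250 bases before the start of each are printed with CACGTG in capitals. In Rrn3 (chr16:13780449-13780698, plus strand) they began 215 and 48 bases before the start, and in Nop2 (chr6:125131633-125131882, plus strand) 60 bases before it.
Rrn3: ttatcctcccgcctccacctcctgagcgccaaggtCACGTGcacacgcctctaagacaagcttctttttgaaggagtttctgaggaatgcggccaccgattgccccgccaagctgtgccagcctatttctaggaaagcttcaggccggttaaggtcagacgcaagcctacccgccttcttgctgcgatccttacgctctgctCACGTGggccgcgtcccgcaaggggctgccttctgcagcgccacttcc
Nop2: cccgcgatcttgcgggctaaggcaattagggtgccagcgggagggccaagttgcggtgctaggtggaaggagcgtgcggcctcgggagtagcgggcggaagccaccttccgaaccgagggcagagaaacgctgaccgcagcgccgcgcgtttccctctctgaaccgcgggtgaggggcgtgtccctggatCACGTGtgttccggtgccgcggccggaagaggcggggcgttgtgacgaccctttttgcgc

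In the other 5, CACGTG lay after the RefSeq start, and 30 bases around it are shown on the strand of the gene so that the flanks, which are known to affect binding, can be compared. It began 2 bases after the start in Pes1 (chr11:3963965-3963994, plus strand), 17 in Wdr43 (chr17:71616220-71616249, plus strand), 37 in Pno1 (chr11:17211540-17211569, minus strand) and in Utp20 (chr10:88826765-88826794, minus strand), and 40 in Mybbp1a (chr11:72441347-72441376, plus strand).
Pes1: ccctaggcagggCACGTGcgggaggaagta
Wdr43: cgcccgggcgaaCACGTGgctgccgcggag
Pno1: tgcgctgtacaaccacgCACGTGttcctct
Utp20: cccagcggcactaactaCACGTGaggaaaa
Mybbp1a: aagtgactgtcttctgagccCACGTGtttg

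The 7 genes did not share a direction with etoposide. Rrn3 and Utp20 were higher than with LPS, by 1.58 and 0.93 on the log2 scale, while Wdr43, Nop2, Mybbp1a, Pno1 and Pes1 had log2 differences from -0.81 to -0.09, of which those of Pno1 and Pes1 changed sign between scalings. The variant E-box CACGCG, counted on both strands, was in a window of 14 of the 36 members (38.9%), against 10.5% of all genes and 19.4% of those past the filter, and CCGGAAG, the core bound by ETS factors, was in a window of 12 (33.3%), against 9.93% and 19.6%. The palindromic BANP element was in 0 of 36, against 0.525% of all genes and 1.1% of those past the filter. The palindromic NRF1 core was in 1 (2.78%, against 1.07% and 2.35%). The decameric p53 half-site, matched as a degenerate pattern, was in 4 (11.1%, against 9.55% of all genes and 8.09% of those past the filter). Full p53 elements were not searched for. The median GC content was 58.7% for the windows of the members and 60.3% for those of genes past the filter. These are matches of letters, and nothing was measured of binding.

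Expressed per kb of annotated exon (the union over transcripts in GENCODE), which allows levels of different genes to be compared, the members ran from 165 in Wdr12 to 20178 in Npm1 with LPS, with a median of 832. Npm1, the abundant chaperone of the granular nucleolus, came first in all 3 conditions, followed by Ncl (nucleolin), at 4599 per exonic kb with LPS. The median of the 42 levels per exonic kb was 631 with etoposide and 501 with KU55933 and etoposide. The order of most other members depended on the length used. Per kb of coding sequence, Npm1 and Ncl were again first in each condition, but Nop10 and Polr1d took ranks 3 and 4 with LPS, and per exonic kb ranks 10 and 18, since their coding sequences (0.192 and 0.399 kb) are short beside their exons (1.11 and 3.04 kb). Wdr12 was last per exonic kb and at rank 26 per coding kb. The 4 members that moved most in rank with etoposide included moves in both directions. Per exonic kb, Rrn3 went from rank 32 with LPS to 6, Utp20 from 35 to 17 and Polr1e from 40 to 30, while Tcof1 went down from 8 to 24. Per coding kb the moves were from 31 to 9, from 41 to 30 and from 37 to 26, and for Tcof1 from 22 to 36. With KU55933 and etoposide, the ranks per exonic kb were 11 for Rrn3, 28 for Utp20, 37 for Polr1e and 18 for Tcof1. No spread between replicates is known for these levels, so neighbours in the order cannot be separated by it.

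**Figure D2:**
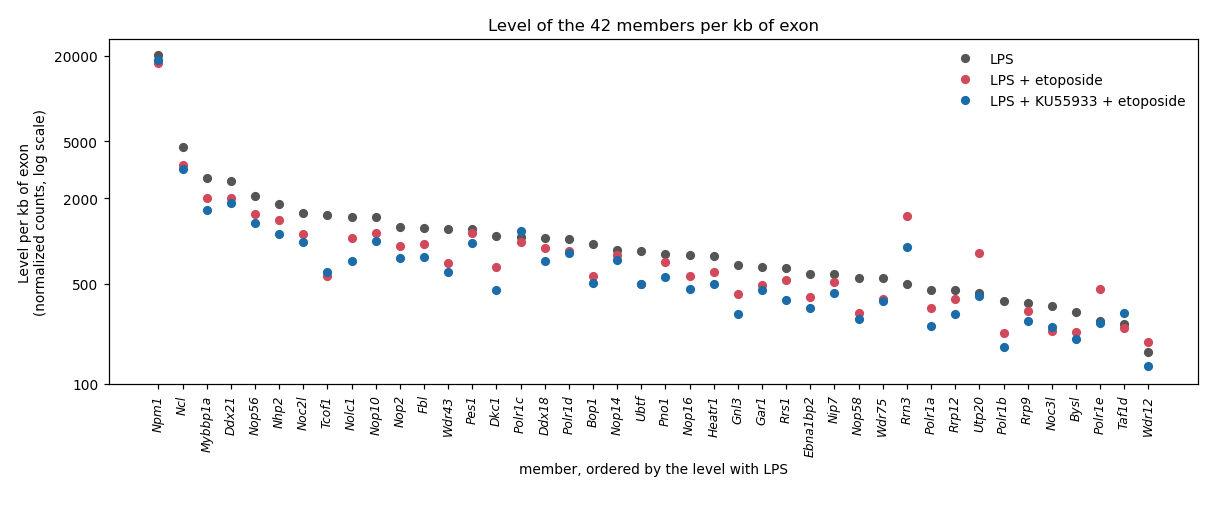
Fitted level per kb of annotated exon (y axis, normalized counts, log scale) of the 42 members (x axis, ordered by the level with LPS), with 1 point for each condition. Npm1 lies at 20178 with LPS and Wdr12 at 165, and for most members the point for LPS is the highest of the 3, with Rrn3, Utp20 and Polr1e among the exceptions.

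The RNA polymerase I genes split in direction with etoposide. Of the 8, Rrn3 and Polr1e were higher past 1.5-fold and Ubtf and Polr1b lower past it (19.7% of all genes were higher and 20.1% lower), and the median log2 difference of the group was -0.20. Rrn3 encodes TIF-IA, the factor that recruits polymerase I to the ribosomal DNA promoter and that carries the growth signal to it. Its 4 deposited values were 1712, 1900, 1976 and 1781 with LPS, 6484, 7267, 8802 and 7045 with etoposide, and 3578, 4035, 4322 and 4394 with KU55933 and etoposide. The values of the 3 conditions did not overlap, but columns of a condition differ only by the library factor. After the factors were divided out, the level of Rrn3 was 2173 with LPS alone, 6510 with etoposide and 3926 with KU55933 and etoposide. It was thus 3.00-fold higher with etoposide than with LPS, the largest upward difference among the members, 1.66-fold lower with KU55933 than with etoposide alone, and still 1.81-fold higher than with LPS. All 3 differences of Rrn3 were past 1.5-fold under each of 5 scalings (median-of-ratios factors over all genes or over genes of at least 100, TMM factors, column totals and quantile normalization). Rrn3 (ENSMUSG00000022682) lies on chromosome 16 at 13780708-13814839.

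Polr1e, on chromosome 4 at 45018583-45036565, encodes the polymerase I subunit also called PAF53, which acts in initiation and elongation. Its deposited values were 850, 944, 981 and 884 with LPS, 1782, 1998, 2419 and 1937 with etoposide, and 938, 1058, 1133 and 1152 with KU55933 and etoposide. The etoposide columns stood above all others, and those of the other conditions overlapped. Columns of a condition differ only by the library factor, so this says nothing of replicates. The level of Polr1e was 1079, 1789 and 1029 in the same order, a log2 difference of 0.73 with etoposide and of -0.80 with KU55933 under etoposide, the latter the largest of the group. Against LPS, the level with KU55933 and etoposide differed by -0.07, a value whose sign changed between scalings.

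The catalytic subunits were lower. Polr1a, the largest subunit, had a level of 5391 with LPS alone, 4004 with etoposide and 2997 with KU55933 and etoposide, and its log2 difference was -0.43, then -0.42 between the treated conditions, and -0.85 against LPS. Polr1b, which forms the active site together with Polr1a, had levels of 2209, 1313 and 1040, and its log2 difference against LPS was -0.75 with etoposide and -1.09 with both agents. Ubtf, the HMG-box protein that binds the ribosomal DNA promoter and keeps its chromatin open, had levels of 5613, 3274 and 3259. Its log2 difference against LPS was -0.78 with etoposide and -0.78 with both agents, and -0.01 between the treated conditions, with a sign there that depended on the scaling. Ubtf thus differed from Polr1a and Polr1b in being as low with etoposide alone as with both agents. Polr1c and Polr1d, which form an assembly platform that polymerase III also uses, had log2 differences of -0.12 and -0.28 with etoposide. With KU55933 under etoposide, Polr1c and Taf1d, a subunit of the SL1 promoter complex, were higher, by 0.26 and 0.36, among the 5 members of the 42 with a difference above 0 in that comparison. The signs of Polr1c and Taf1d in etoposide against LPS changed between scalings.

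**Figure D3:**
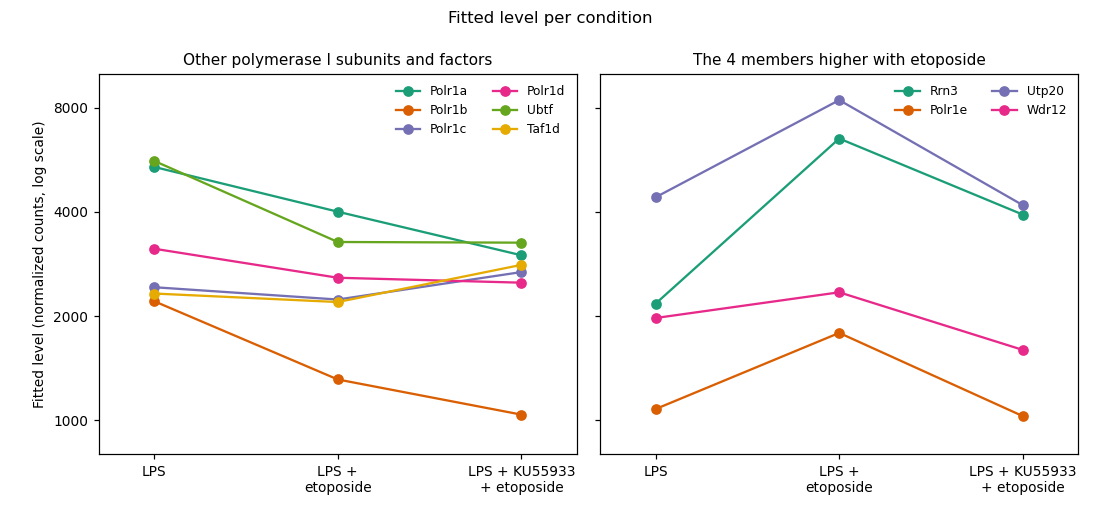
Fitted level (y axis, normalized counts, log scale) in the 3 conditions (x axis) for the other 6 RNA polymerase I genes (left) and for the 4 members that were higher with etoposide than with LPS (right). On the right, each gene has its highest level with etoposide alone (Rrn3 6510, Polr1e 1789, Utp20 8404, Wdr12 2344), while on the left Polr1a and Polr1b are lower in each successive condition.

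All 6 nucleolar scaffold and ribosomal DNA-associated genes had a log2 difference below 0 with etoposide, with a median of -0.44, although the sign of Npm1 changed between scalings. Below 0 in that comparison were also 57.1% of all genes and 68.0% of genes of the same level range. Tcof1 encodes treacle, a nucleolar phosphoprotein that binds polymerase I and UBF and is a target of ATM at breaks in ribosomal DNA. Its deposited values were 6339, 7032, 7315 and 6592 with LPS, 2983, 3343, 4049 and 3241 with etoposide, and 2925, 3299, 3534 and 3592 with KU55933 and etoposide. The LPS columns were all above the columns of the treated conditions, and those overlapped. This follows from the fitted levels and library factors alone and is not a separation of replicates. The level of Tcof1 was 8042 with LPS alone, 2995 with etoposide and 3210 with KU55933 and etoposide, a log2 difference of -1.42 with etoposide, the largest downward difference of the 42 members, and of -1.32 with both agents. KU55933 under etoposide left a log2 difference of 0.10. Tcof1 was the only member lower past 1.5-fold with etoposide under each of the 5 scalings.

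Nolc1, a chaperone of snoRNPs on their way to the nucleolus, had the largest difference of the group with KU55933 under etoposide, -0.54. Its level was 5843 with LPS, 4154 with etoposide and 2860 with both, so that it was 2.04-fold lower with both agents than with LPS. Mybbp1a, a nucleolar protein that represses polymerase I and also binds p53, had levels of 15968, 11710 and 9549, and the helicase Ddx21, which links polymerase I and II transcription, of 13677, 10411 and 9594. Ncl, which binds the precursor RNA and chromatin, had levels of 46851, 34751 and 32514. The log2 differences of Ncl, Ddx21 and Mybbp1a against LPS were -0.43, -0.39 and -0.45 with etoposide and -0.53, -0.51 and -0.74 with both agents. Npm1 had levels of 53775, 47020 and 49680, a difference of -0.19 with etoposide. Npm1 has processed pseudogenes, and its counts are uncertain to the extent that reads were shared with them.

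The snoRNP core genes had log2 differences below 0 in each comparison, under each of the 5 scalings. Under the main scaling, 57.1% of all genes were below 0 with etoposide. With KU55933 under etoposide 51.1% were, and with both agents against LPS 52.9%. For genes of the same level range the shares were 68.0%, 52.9% and 65.7% in the same order. In the box C/D snoRNP, which carries out ribose methylation, Nop58 had levels of 5931 with LPS alone, 3360 with etoposide and 3043 with KU55933 and etoposide, and differed by -0.82 with etoposide and by -0.96 with both. Nop56, its partner in the particle, had levels of 8487, 6316 and 5479, and the methyltransferase Fbl (fibrillarin) of 5152, 4039 and 3246. Fbl had the largest difference of the 3 with KU55933 under etoposide, at -0.32. All 3 were lower past 1.5-fold with KU55933 and etoposide against LPS, as were 18% of all genes.

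In the box H/ACA snoRNP, Dkc1 encodes dyskerin, the pseudouridine synthase, which is also part of telomerase. Its deposited values were 3507, 3891, 4047 and 3647 with LPS, 2698, 3024, 3663 and 2932 with etoposide, and 1692, 1908, 2044 and 2077 with both agents. The columns with both agents lay below all others, while 1 etoposide column, that with the largest library factor, was within the LPS range. As columns of a condition differ only by that factor, neither position reflects replicates. The level of Dkc1 was 4449, 2709 and 1856, a log2 difference of -0.72 with etoposide, of -0.55 with KU55933 under etoposide and of -1.26 against LPS. Its partners Nhp2, Nop10 and Gar1 lay close together, at -0.37 to -0.41 with etoposide, -0.13 to -0.32 with KU55933 under etoposide, and -0.55 to -0.69 with both agents against LPS. Nhp2 had the highest level per exonic kb of the 4, 1815 with LPS, while per coding kb Nop10 was highest.

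The small subunit processome and 40S group had a median of -0.20 with etoposide, -0.25 with KU55933 under etoposide and -0.54 with both against LPS. Utp20 stood apart from the other 8. It encodes a very large scaffold protein of the late processome, and lies on chromosome 10 at 88746607-88826804. Its deposited values were 3472, 3853, 4008 and 3611 with LPS, 8370, 9381, 11362 and 9095 with etoposide, and 3809, 4295, 4602 and 4677 with KU55933 and etoposide. Only the etoposide columns were separate from the rest, but columns of a condition differ only by the library factor and show no replicate spread. The level of Utp20 was 4405, 8404 and 4180, 1.91-fold higher with etoposide than with LPS and 2.01-fold lower with KU55933 than with etoposide alone, the largest difference of the 42 members in that comparison. The log2 difference between both agents and LPS was -0.08, a sign that changed between scalings.

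Heatr1, another large processome scaffold (UTP10) that is needed for polymerase I transcription, had levels of 6127, 4740 and 3889 and did not share the pattern of Utp20: its log2 difference was -0.37 with etoposide and -0.66 with both against LPS. Wdr43, a subunit of the same t-UTP subcomplex as Heatr1, had the largest downward difference of the group. Its level was 5820 with LPS, 3326 with etoposide and 2908 with both, or -0.81 and -1.0 against LPS. Wdr75, of the same subcomplex, differed by -0.48 and -0.54. Bysl and Pno1, which stay on the 40S precursor into the cytoplasm, differed by -0.47 and -0.17 with etoposide and by -0.63 and -0.53 with both. Rrp12, an export factor of the precursor, Nop14 and the U3 snoRNP protein Rrp9 had log2 differences from -0.20 to -0.12 with etoposide, and the signs of these and of Pno1 changed between scalings. With both agents against LPS, Rrp12, Rrp9 and Nop14 were at -0.55, -0.43 and -0.24, each with the same sign under the 5 scalings.

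Among the 12 genes of 60S assembly, 11 had a log2 difference below 0 with etoposide and all 12 with both agents against LPS. Of all genes, 57.1% and 52.9% were below 0 in these comparisons, and of genes of the same level range 68.0% and 65.7%. With both agents against LPS, 7 were lower past 1.5-fold (18% of all genes and 22.7% of genes of the same level range were). The medians were -0.46 with etoposide, -0.27 with KU55933 under etoposide and -0.70 with both. Pes1, Bop1 and Wdr12 form the PeBoW complex, which is needed for the maturation of 28S ribosomal RNA, and the mRNAs of its subunits differed in direction. Bop1 had levels of 2814 with LPS, 1694 with etoposide and 1493 with both, or -0.73 with etoposide, the largest downward difference of the group. Pes1 had levels of 3650, 3418 and 2917, or -0.09 with etoposide, with a sign that changed between scalings. Wdr12 had levels of 1976, 2344 and 1598, or 0.25 with etoposide and -0.55 with KU55933 under etoposide, the largest difference of the group in the latter comparison.

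Gnl3 encodes nucleostemin, a GTPase of the nucleolus that is abundant in dividing cells and binds MDM2. Its level was 4122 with LPS, 2606 with etoposide and 1879 with both, a log2 difference of -0.66, then -0.47 between the treated conditions, and -1.13 against LPS, the largest of the 60S group. Nop2, a methyltransferase of 28S ribosomal RNA, had levels of 3484, 2544 and 2101. Rrs1, which brings in the 5S particle, Nop16 and Ebna1bp2 differed by -0.27, -0.49 and -0.55 with etoposide and by -0.73, -0.79 and -0.80 with both. The helicase Ddx18 and Nip7 differed by -0.23 and -0.18 with etoposide, and by -0.53 and -0.44 with both. Noc3l was the exception in the group with KU55933 under etoposide, at 0.10. Noc2l, a 60S factor that also binds p53, had levels of 4480, 3232 and 2832, but 20.9% of its exonic bases overlap exons of a gene on the opposite strand, and the strand setting of the counting was not given in the sources used here, so that its level is uncertain.

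Over all 42 members, 4 had the same pattern of a higher level with etoposide and a lower level with KU55933 under etoposide: Rrn3, Polr1e, Utp20 and Wdr12. The share of all genes with this pattern was not counted, so it cannot be called particular to these genes. With KU55933 under etoposide, 37 of the 42 members and 51.1% of all genes were below 0. Rrn3, Polr1e and Utp20 were also the 3 members lower past 1.5-fold in KU55933 and etoposide against etoposide under each of the 5 scalings. The 2 comparisons share the etoposide libraries, and a high value there would enter both with opposite sign. Of the 21 members lower past 1.5-fold with both agents against LPS, 8 were past it under each of the 5 scalings (Polr1b, Nolc1, Tcof1, Nop58, Dkc1, Wdr43, Bop1 and Gnl3), and 6 were lower past 2-fold (Polr1b, Nolc1, Tcof1, Dkc1, Wdr43 and Gnl3), as were 6.85% of all genes. The share of all genes past 1.5-fold under each of the 5 scalings was not counted in any comparison. Under the 5 scalings taken singly, 10.5% to 18% of all genes were lower past it with both agents against LPS. For genes of the same level range the shares were 12.4% to 22.7%. The log2 differences of the members had little relation to their genomic span, coding length or mean level: the Spearman coefficients over the 42 genes lay between -0.25 and 0.07, as a description across genes that share the same libraries.

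Introns of ribosome biogenesis genes often house snoRNA genes, and GENCODE annotation places 27 snoRNA genes inside 7 of the members: 8 in Taf1d, 5 in Nop56, 4 in Nop58, 3 each in Ncl, Wdr43 and Gnl3, and 1 in Dkc1. These 7 host genes had median log2 differences of -0.66 with etoposide, -0.19 with KU55933 under etoposide and -0.96 with both against LPS. The other 35 members had medians of -0.37, -0.26 and -0.55. Taf1d, with the most snoRNA genes, was the exception, at -0.08 with etoposide and 0.27 with both. The hosts were sorted after the values were known and the difference was not tested.

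For 126 other ribosome biogenesis genes, the medians were -0.25, -0.09 and -0.39 for the comparisons in the same order, all nearer to 0 than those of the members, beside -0.23, -0.02 and -0.20 for genes of the level range of the members. In etoposide against LPS, 17 (13.5%) were lower and 4 (3.17%) higher past 1.5-fold, both shares below those of all genes (20.1% and 19.7%). In KU55933 and etoposide against etoposide, 6 (4.76%) were lower and 0 higher, against 10.9% and 7.86% of all genes. In KU55933 and etoposide against LPS, 27 (21.4%) were lower and 2 (1.59%) higher, where all genes gave 18% and 18.7% and the genes of the same level range 22.7% and 7.97%, so that the lower share was near these. The 3 lowest with etoposide were the exosome subunits Exosc7 and Exosc1, at -1.06 and -0.87, and the snoRNP assembly ATPase Ruvbl1, at -0.88. The 3 highest were Rrp36 and Nol11, of the small subunit processome, at 1.67 and 0.62, and the 60S factor Mak16, at 0.82. With KU55933 under etoposide, Rrp36, Nol11 and Mak16 had log2 differences of -0.36, -0.78 and -0.51, and 88 of the 126 genes were below 0. Since these 3 were picked for high values with etoposide, and both comparisons use the etoposide libraries, the lower values are no separate evidence.

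The 8 other RNA polymerase I genes, among them subunits of the enzyme, SL1 subunits and the terminator protein Ttf1, had medians of -0.27, 0.15 and -0.08. The 79 cytosolic ribosomal protein genes had medians of 0.05, 0.01 and 0.07, with 0 past 1.5-fold in any comparison, so that their mRNAs did not share the lower levels of the factors that assemble the ribosome. Polymerase II and polymerase III subunits and those shared by the 3 polymerases had medians of -0.07, -0.27 and -0.17 with etoposide, of -0.17, 0.10 and -0.30 with KU55933 under etoposide, and of 0.02, -0.08 and -0.32 with both agents against LPS. The 5 shared subunits were thus as low as the members (-0.25) with KU55933 under etoposide. Distances between lists are nearly the same under any linear scaling, while each list's own sign is not.

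**Figure D4:**
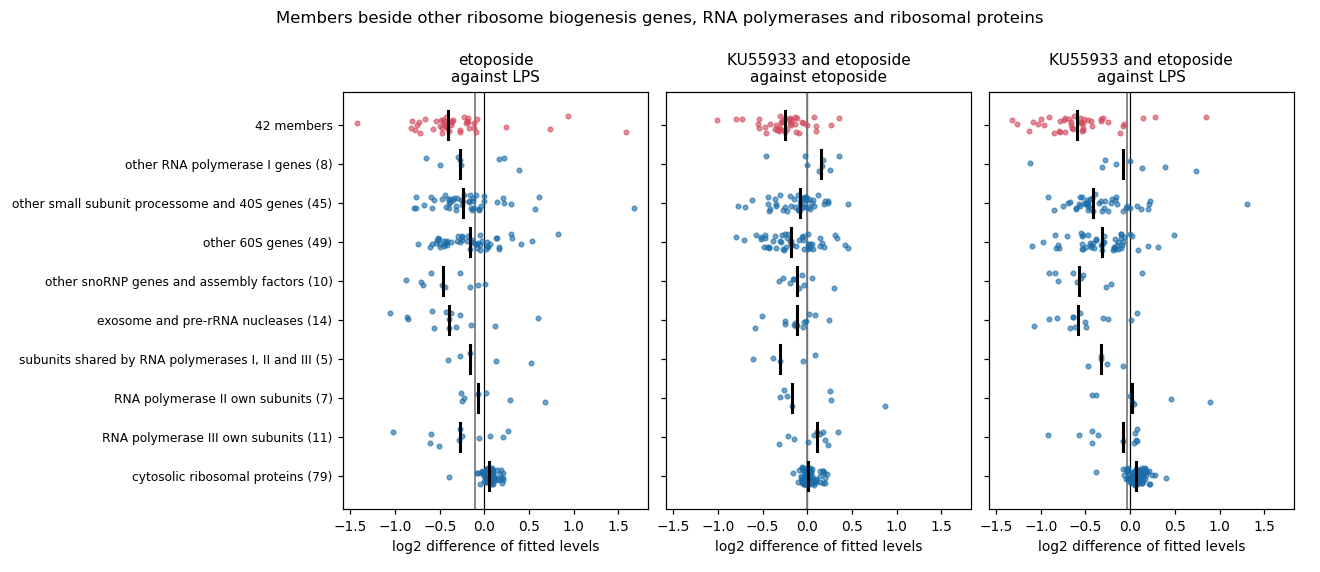
Log2 difference of the fitted levels (x axis) for the 42 members, for other ribosome biogenesis genes by role, and for RNA polymerase subunits and ribosomal proteins (y axis, number of genes in brackets), with 1 point per gene, a black bar at the median of each list and a grey line at the median of all genes. The members have medians of -0.40, -0.25 and -0.60 in the 3 panels, and the 79 ribosomal protein genes lie in a narrow band around 0.05, 0.01 and 0.07.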

How the data were processed

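mRNA libraries (TruSeq, single-end reads of 100 bases) came from 4 biological replicates per condition. The authors trimmed reads with Trim Galore and cutadapt 1.2.1, mapped them to GRCm38 with TopHat2 2.0.12, counted them with HTSeq on the Ensembl annotation, and ran DESeq2 1.6.3 on the counts. The deposited table holds a signal for each gene and library, normalized counts that are the fitted condition mean times a library factor. The 3 further deposited tables hold the authors' own comparisons (mean, log2 fold change with its error, Wald score, p-value and adjusted p-value) and were not used.

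Library factors were median-of-ratios factors over all genes. Levels are means of the scaled columns, and differences were taken as log2(level + 1). Genes needed a level of at least 10 in 1 condition. Each member is reported; values in every condition are written out for the largest differences and highest levels of each role group. The other ribosome biogenesis genes named are the 3 with the largest differences each way with etoposide. Members, lists and roles were chosen with earlier results of these data known. Alternatives were TMM factors (trims of 30% and 5%), totals, quantile normalization, no scaling, pseudocounts of 0.5 and 5, no minimum level and one of 50, log2 marks of 0.32 and 1 in place of 0.58, and leaving out each replicate. Factors over genes of at least 100, differences relative to the median gene, the level-matched genes and the p53 half-site were added after the data were seen. Coordinates, exonic lengths (union of exons) and, added later, coding lengths (longest coding sequence of a principal transcript) are from GENCODE M21, and promoters from RefSeq, both on GRCm38. The functions were tested on simulated data: for etoposide against LPS, 200 of 200 changed genes among 29486 were recovered. The changes were of at least 2-fold, in genes with a level of at least 100 and without noise. Recovery past 1.5-fold thus checks the code only, and not how well smaller differences or a shift of most genes are measured. Python 3.11.15, numpy 2.4.6, pandas 2.3.3, scipy 1.17.1 and matplotlib 3.10.9 were used.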

Additional observations from a re-analysis of the deposited data

How the results depend on the processing

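The scaling of the libraries decided most counts, and none of these values carries replicate error, since the deposited columns are fitted means. Medians and counts were followed for the members and the other ribosome biogenesis genes. TMM factors and pseudocounts of 0.5 or 5 kept each within the limits set for a change. These were 1.5-fold for a count and, for a median, the 95% interval of the read sampling error of a typical member. With TMM factors, 12 (etoposide) and 23 (both agents) of the other genes were lower past 1.5-fold against LPS. The main scaling gave 17 and 27. A minimum level of 50 or no filter could change none of these values. The lowest level was 772 among the members and 126 among the other genes. Pseudocounts up to 5 are small beside such levels. Leaving out each replicate changed the scaling only: the members' medians stayed at -0.40, -0.25 and -0.60 and their counts at 3 higher and 8 lower, 0 and 3, and 1 and 21 (etoposide against LPS, KU55933 and etoposide against etoposide, and KU55933 and etoposide against LPS, the order used here). No paired analysis was possible because the columns of a condition are proportional and hold no deviation of single samples, and the limma fit with the replicate number was not run. For the members, the median was -0.19 and -0.36 (first and last comparison) with column totals, where 3 and 9 were lower past 1.5-fold (12% and 10.5% of all genes were), and -0.13 and -0.37 with quantile normalization, where 1 and 11 were lower (21% and 17% of all genes). With factors over genes of at least 100 the medians were -0.21, -0.29 and -0.44, and 3, 5 and 13 members were lower (12.6%, 12% and 12.6% of all genes). Unscaled, the medians were 0.019 (a change of sign), -0.38 and -0.30, and 1, 8 and 8 were lower (7.39%, 15% and 9.09% of all genes). Relative to the median gene, the first median was -0.30. With a log2 mark of 0.32 for a count, 26, 12 and 34 were lower and 1 was higher in the second comparison, and with a fold of 2, 1, 1 and 6 were lower and 1 (first) and 0 (last) higher. Of all genes, 6.85% were lower past 2-fold in the last comparison. Shares of all genes were not counted for the other cases at these marks, so those counts cannot be set beside a background. For the other ribosome biogenesis genes, the median was -0.035 and -0.15 (first and last) with totals, with 8 and 4 higher and 4 and 11 lower past 1.5-fold, and -0.074 and -0.20 with quantile normalization, with 7 higher and 10 lower in the first. Totals put 25.1% and 26.6% of all genes higher and 12% and 10.5% lower, and quantile normalization 17.9% higher and 21% lower in the first. With factors over genes of at least 100 the medians were -0.057, -0.14 and -0.23, with 7 higher in the first (24.4% of all genes) and 5 and 16 lower in the first and last (12.6% and 12.6% of all genes). Unscaled, they were 0.17 (a change of sign), -0.22 and -0.091, with 17 and 5 higher (first and last) and 1, 14 and 7 lower. The shares of all genes were 33% and 29.5% higher and 7.39%, 15% and 9.09% lower. Relative to the median gene, the first median was -0.15, with 9 lower (15.6% of all genes). With the log2 mark of 0.32, 8, 5 and 4 were higher and 50, 27 and 66 lower, and with a fold of 2, 1 and 1 higher (first and last) and 1, 0 and 3 lower. Here too, the only share of all genes at hand was the 6.85% lower past 2-fold in the last comparison. The shift of all genes explains these moves by construction for the linear scalings: relative to the main scaling the median gene moved by 0.22 with totals, by 0.20 with factors over genes of at least 100 and by 0.43 unscaled in the first comparison.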
